A study of Homo sapiens with 27 samples.

Results

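KLK2, KLK3, TMPRSS2, FKBP5, FOLH1, SLC45A3, FOXA1 and GATA2 were followed across 3 human prostate cancer cell lines in which the kinase gene RIPK2 had been targeted. Of these 8 genes, 6 are known for their response to androgen in the prostate and 2, FOXA1 and GATA2, encode transcription factors that prepare chromatin for the androgen receptor. They were selected by symbol from the deposited count tables, which together list 27546 symbols. All 8 were listed in the 22Rv1 and DU145 tables and 7 in the PC3 table, where KLK2 was not listed. After the filter on low counts, 8 were tested in 22Rv1, 4 in DU145 and 5 in PC3.

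The androgen receptor is a steroid-activated transcription factor. On binding androgen it leaves its chaperones, enters the nucleus and binds DNA elements near its target genes, at sites that FOXA1 and GATA2 help to open. In the luminal epithelium of the prostate it drives secreted proteases of the kallikrein family, and the KLK3 product, prostate-specific antigen, is the serum marker of this tumour. 22Rv1 is an established line known to carry the receptor and truncated forms of it. DU145 and PC3 are established metastasis-derived lines usually described as lacking a working receptor.

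Messenger RNA was sequenced as 27 strand-specific paired-end libraries, 9 for each line and 3 for each group. In every line a control guide RNA (genotype given as WT) was set against 2 RIPK2 guides (genotype given as RIPK2 knockout). The RIPK2 guides were gRNA 1 and gRNA 10 in 22Rv1, and gRNA 2 and gRNA 10 in DU145 and in PC3. No drug or hormone treatment is named for any group, and the culture medium was not given in the sources used here. It was also not given whether a population is 1 clone or a pool of edited cells. Nothing says that replicates came from separate cultures, so p-values measure the spread between these libraries, which may be technical.

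The promoters of KLK3 and KLK2 are shown first because these neighbouring genes on chromosome 19 have similar promoters and both rose with gRNA 10 in 22Rv1. Their GENCODE bounds lie 803 bases apart, but RefSeq places the KLK2 start inside those bounds, further from KLK3. Each line gives the 250 bases before the RefSeq start site, 5′ to 3′ on the plus strand (RefSeq, GRCh38.p14). KLK3 covers chr19:50854665-50854914 and KLK2 covers chr19:50873189-50873438. Capitals mark a 15-base stretch that begins, in KLK3, with the core motif of steroid receptor elements.
KLK3: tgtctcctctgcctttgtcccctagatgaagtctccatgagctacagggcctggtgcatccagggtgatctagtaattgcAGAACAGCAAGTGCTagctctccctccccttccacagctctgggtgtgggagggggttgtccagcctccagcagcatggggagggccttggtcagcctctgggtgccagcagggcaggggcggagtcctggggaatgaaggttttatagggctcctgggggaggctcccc
KLK2: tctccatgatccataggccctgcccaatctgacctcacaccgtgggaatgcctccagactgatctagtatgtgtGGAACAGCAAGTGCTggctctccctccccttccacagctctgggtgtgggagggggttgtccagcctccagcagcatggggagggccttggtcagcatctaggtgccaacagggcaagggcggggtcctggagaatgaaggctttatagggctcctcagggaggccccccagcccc
In the alignment of these promoters 205 of 241 bases (85.1%) were identical. The capital stretch lies at positions -170 to -156 before the start site in KLK3 and at -176 to -162 in KLK2. The KLK2 stretch differs by the single substitution A1G, with the KLK3 base first and positions counted from 1 at the 5′ end of the stretch. RefSeq promoters were matched for 6 of the 8 genes, with a pair of promoters each for FKBP5 and GATA2. TMPRSS2 and FOLH1 had no entry. On both strands of these promoters 4 motifs were searched. They were the steroid receptor core motif AGAACA, the whole element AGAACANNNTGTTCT, which contains the core, the forkhead motif TGTTTAC and, for GATA factors, AGATAA. They occurred in 12.4%, 0.00286%, 2.98% and 9.19% of 34943 RefSeq promoter windows of 250 bases. Among the promoters of the 8 genes, the KLK3 promoter held 1 AGAACA and the others held none of the 4 motifs. A motif match is a description of letters, not evidence of binding.

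Depth was even, from 17958558 to 20650819 counts per library. RIPK2 was lower in every RIPK2-guide library than in every control library of its line. Its level, in counts per 1000000 counts of a library (CPM), ranged over the control libraries from 15.8 to 18.2 in 22Rv1, 39.4 to 44.4 in DU145 and 59.3 to 62.4 in PC3. It stood at 52.1% of control with gRNA 1 and 32.3% with gRNA 10 in 22Rv1, at 27.9% with gRNA 2 and 81.9% with gRNA 10 in DU145, and at 34.2% with gRNA 2 and 45.1% with gRNA 10 in PC3. The DU145 gRNA 10 difference did not pass the test (adjusted p = 0.0614), while the other 5 did. It passed without any 1 of the 3 DU145 gRNA 2 libraries (adjusted p from 0.014 to 0.0311). DESeq2 also called it (adjusted p = 0.0454), as did edgeR with only control and gRNA 10 fitted (adjusted p = 0.000576). These counts measure RNA and not editing or protein. Replicate 3 of 22Rv1 gRNA 1 stood apart, with 16.7% of its counts on mitochondrial genes against 1.92% and 2.10% in the other replicates of that group. Replicate 3 of DU145 gRNA 2 also stood apart from its group. Results of the genes followed here that rest on either library are given with and without it. For the further gene lists below, only some counts are given both ways. The luminal markers KRT8, KRT18, EPCAM and CDH1 were all above 1 CPM in every group of every line. Of the basal markers KRT5, KRT14 and TP63, only KRT5 in PC3 with gRNA 2 exceeded 1 CPM as a group mean, through 1 library with 85 counts where the lowest had 1.

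Control cells of the 3 lines differed widely in these genes. All 7 genes in the comparison across lines were higher in 22Rv1 control than in DU145 control, and all 7 higher than in PC3 control. The background was 75.9% of 16322 genes called for the first pair and 80.5% for the second, so the share called is close to that of all genes. KLK3 and FOLH1 passed the filter on low counts only through 22Rv1, so their direction was fixed by the filter. For TMPRSS2, FKBP5, SLC45A3, FOXA1 and GATA2, the common direction and the size are what the genes show. The kallikreins marked the contrast. KLK3 stood at 19.8, 19.1 and 21.5 CPM in the 22Rv1 control libraries and had 0 counts in all 3 control libraries of DU145 and of PC3. It was at least 139-fold higher in 22Rv1 than in DU145 and at least 135-fold higher than in PC3, taking 3 counts per library as the limit a count of 0 allows. KLK2, the protease that activates the KLK3 product, stood at 91.9, 98.3 and 109 CPM in 22Rv1 control and at 0 counts in DU145 control, at least a 690-fold difference. FOLH1, which encodes prostate-specific membrane antigen, was at least 1102-fold higher in 22Rv1 than in DU145 control. In PC3 control it had 10, 7 and 8 counts.

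TMPRSS2, a membrane protease gene that is often fused to an ETS factor in prostate tumours, gave 1544, 1397 and 1467 counts in 22Rv1 control against 2, 2 and 3 in DU145 control. The ratio was 699 (95% interval 339 to 1739, for counting error only). Against PC3 control its log2 fold change was 2.72 (SE 0.09, adjusted p = 8.34e-19). FKBP5, a co-chaperone of steroid receptors, was higher in 22Rv1 by 2.84 log2 units against DU145 (SE 0.15, adjusted p = 2.79e-15) and by 4.74 against PC3 (SE 0.17, adjusted p = 2.88e-19). SLC45A3, which encodes the prostate membrane transporter prostein, was higher by 3.03 and 2.12 (SE 0.10 in both). FOXA1 was higher by 2.90 and by 0.93, and GATA2 by 3.87 and by 1.98. Between DU145 and PC3 controls 6 of 7 genes differed, against a background of 75.9%. FKBP5 was higher in DU145 (log2 fold change 1.89). FOLH1, TMPRSS2, SLC45A3, FOXA1 and GATA2 were lower there, and KLK3 had 0 counts on both sides. Line, culture and count table cannot be told apart in these comparisons.

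Per kilobase of exon, FOXA1 was the most abundant of the 8 transcripts in 22Rv1 control at 112 ± 8.30 CPM per kilobase (SD, n = 3). GATA2 followed at 103 ± 7.73, and its SD range overlapped that of FOXA1. FKBP5 (78.1 ± 5.28), FOLH1 (41.7 ± 3.83), SLC45A3 (32.5 ± 3.34), KLK2 (15.6 ± 1.38), TMPRSS2 (12.9 ± 0.593) and KLK3 (4.33 ± 0.266) followed, each apart from its neighbour by more than their summed SDs. FOXA1 also led in DU145 control (15.025 ± 0.889), ahead of FKBP5 (10.9 ± 0.448), GATA2 (7.07 ± 0.573) and SLC45A3 (3.97 ± 0.153). PC3 control had the order FOXA1 (52.9 ± 2.23), GATA2 (23.5 ± 1.11), SLC45A3 (6.74 ± 0.196), FKBP5 (2.63 ± 0.157) and TMPRSS2 (1.75 ± 0.125). By this measure the pioneer factor FOXA1 was highest in all 3 lines, and the kallikreins were near the foot of the order in 22Rv1. The length used counts all annotated exons of a gene, 10628 bases for FKBP5, 6394 for KLK2 and 4639 for KLK3. The longest coding transcripts of KLK2 and KLK3 have 3019 and 1664 bases, so the order depends on the length chosen. In plain CPM FKBP5 exceeded FOXA1 in 22Rv1 control (830 against 447) and DU145 control (115 against 59.8), but not in PC3 control (28.0 against 211).

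**Figure D1:**
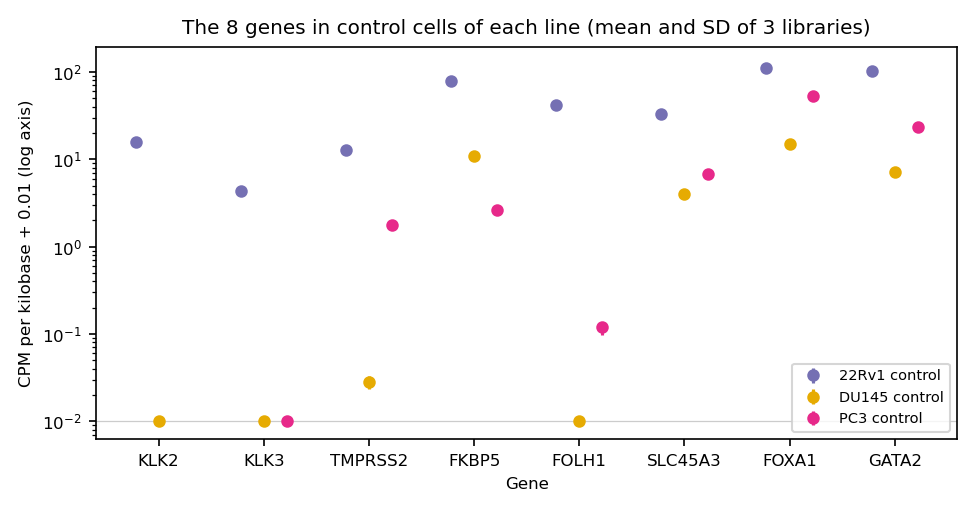
Mean level of each gene in the control libraries of 22Rv1, DU145 and PC3, in CPM per kilobase of exon on a log axis with the offset named on the axis, bars showing 1 SD of 3 libraries. KLK2, KLK3 and FOLH1 are high only among the 22Rv1 points, FOXA1 is the highest point of each line, and KLK2 has no PC3 point.

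In 22Rv1 with gRNA 1, 6 of the 8 genes were lower than in control and none was higher at the adjusted threshold, where 48.5% of 15198 genes were called. The median log2 fold change of the 8 genes was -1.05, against 0.02 over all genes. Without gRNA 1 replicate 3 the count was 7 lower and the median -0.88, with 8391 of all genes called in place of 7377. With gRNA 10, 4 of the 8 fell and 2 rose, where 40.6% of genes were called, and the median was -0.24 against a median over all genes within 0.01 of 0. Both guides were compared with the same 3 control libraries. TMPRSS2, FKBP5, FOLH1 and SLC45A3 fell with both guides, KLK2 and KLK3 rose with gRNA 10, and GATA2 and FOXA1 fell with gRNA 1.

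The 2 secreted kallikreins, KLK3 (chr19:50854915-50860764, plus strand) and KLK2 (chr19:50861568-50880567, plus strand), rose with gRNA 10. Positions of genes are those of GENCODE 29 on GRCh38. KLK3 stood at 19.8, 19.1 and 21.5 CPM in the control libraries and at 36.5, 31.5 and 36.6 with gRNA 10, with no overlap. Its log2 fold change was 0.79 (SE 0.18, adjusted p = 0.00453). KLK2 stood at 91.9, 98.3 and 109 CPM in control and at 162, 154 and 158 with gRNA 10, also with no overlap, a log2 fold change of 0.66 (SE 0.16, adjusted p = 0.00831). With gRNA 1 both genes overlapped the control libraries. KLK3 gave 17.7, 17.4 and 28.8 CPM (log2 fold change 0.08, adjusted p = 0.737) and KLK2 gave 81.6, 88.3 and 135 (0.02, adjusted p = 0.918). Replicate 3, the library with the high mitochondrial share, was the highest gRNA 1 library for both, and the other replicates lay below every control library. Without it KLK2 passed the test as lower (-0.24, adjusted p = 0.0247) and KLK3 stood at -0.21 (adjusted p = 0.105). The part of the mitochondrial share in these values was not tested.

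The rise of KLK2 and KLK3 with gRNA 10 was not shared along the kallikrein cluster. Of the 13 other kallikrein genes 7 were tested, and with gRNA 10 none rose and 5 fell (median log2 fold change -1.74), or 71.4% called against 40.6% of all genes. With gRNA 1, 1 rose and 4 fell (71.4% against 48.5%), and without replicate 3 of that guide 1 rose and 5 fell. Of all genes, 8391 were called in that last fit in place of 7377. KLK11 had the largest mean fall over both guides, from 38.6 ± 2.66 CPM (SD, n = 3) in control to 6.13 ± 2.30 with gRNA 1 and 1.34 ± 0.187 with gRNA 10. Those are log2 fold changes of -2.66 and -4.84. KLK4, a further androgen-induced kallikrein, was at -2.47 with gRNA 10 (adjusted p = 1.07e-06) and 0.03 with gRNA 1. KLK1, tissue kallikrein, was called in opposite directions, 1.02 with gRNA 1 and -0.47 with gRNA 10. The pseudogene KLKP1, which lies beyond KLK2 on the other strand, was at -1.11 with gRNA 10 (adjusted p = 0.000204). KLK4, KLK1 and KLKP1 were named after their values were seen. The KLK3 transcript shares 0 of its 1515 windows of 150 bases with KLK2, so an exact match of that length to both was not found.

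TMPRSS2 (chr21:41464551-41531116, minus strand) fell with both guides. Its control libraries gave 82.3, 75.1 and 78.5 CPM, the gRNA 1 libraries 22.5, 24.7 and 27.4, and the gRNA 10 libraries 53.8, 53.3 and 58.5. The 3 groups did not overlap, and gRNA 1 was the lowest. The log2 fold change was -1.66 with gRNA 1 (SE 0.10, adjusted p = 5.82e-07) and -0.51 with gRNA 10 (SE 0.10, adjusted p = 0.00181). SLC45A3 (chr1:205657851-205680459, minus strand) followed the same order, with 130, 106 and 125 CPM in control, 46.9, 45.4 and 33.5 with gRNA 1 and 83.8, 80.8 and 83.4 with gRNA 10. On the log2 scale it differed from control by -1.52 (SE 0.13, adjusted p = 7.73e-06) and -0.54 (SE 0.13, adjusted p = 0.00655).

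FOLH1 (chr11:49146635-49208670, minus strand), whose product is known to rise when androgen signalling is blocked, also fell with both guides. It gave 151, 176 and 151 CPM in control, 46.8, 46.3 and 60.5 with gRNA 1 and 104, 105 and 114 with gRNA 10, with no overlap between groups. FOLH1 thus stood at a log2 fold change of -1.64 (SE 0.12, adjusted p = 2.54e-06) and -0.56 (SE 0.12, adjusted p = 0.0033). FOLH1 values are uncertain to the extent that its transcript shares 320 of 2548 windows of 150 bases (12.6%) with the pseudogene FOLH1B. That pseudogene was counted at 36 to 39 reads per control library against 2812 to 3282 for FOLH1.

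FKBP5 (chr6:35573585-35728583, minus strand) fell more with gRNA 10 than with gRNA 1, the reverse of the 3 genes above. Control libraries gave 812, 893 and 785 CPM, and gRNA 10 libraries gave 350, 356 and 353. The gRNA 1 libraries gave 662, 635 and 358, all below control, with replicate 3 near the gRNA 10 level. The log2 fold change was -1.23 with gRNA 10 (SE 0.19, adjusted p = 0.000411) and -0.59 with gRNA 1 (SE 0.19, adjusted p = 0.0232). Without gRNA 1 replicate 3 the gRNA 1 value was -0.36 (adjusted p = 0.000301). The gRNA 1 call was lost without control replicate 1 (-0.61, adjusted p = 0.052) and without control replicate 2 (-0.54, adjusted p = 0.0864), and when control and gRNA 1 were fitted alone (-0.58, adjusted p = 0.0583).

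GATA2 (chr3:128479427-128493185, minus strand) differed most between the guides. It gave 480, 421 and 481 CPM in control, 51.9, 50.8 and 97.4 with gRNA 1 and 478, 473 and 460 with gRNA 10. Only the gRNA 1 libraries were low, at a log2 fold change of -2.79 (SE 0.22, adjusted p = 3.99e-06), and the gRNA 10 libraries overlapped control (0.03, SE 0.21, adjusted p = 0.92). GATA2 overlaps its antisense gene GATA2-AS1 by 3974 bases, and whether the counting used strand was not given in the sources used here, so reads of the pair may be mixed. GATA2-AS1 itself was lower with both guides, at -1.33 with gRNA 1 and -0.55 with gRNA 10. FOXA1 (chr14:37589984-37596059, minus strand) moved least of the genes called with gRNA 1. It gave 427, 485 and 428 CPM in control, 374, 366 and 385 with gRNA 1 and 503, 518 and 498 with gRNA 10. Its log2 fold change was -0.25 with gRNA 1 (adjusted p = 0.0257) and 0.18 with gRNA 10 (adjusted p = 0.0974). The FOXA1 call with gRNA 1 was lost without gRNA 1 replicate 1 (adjusted p = 0.0625) or replicate 2 (adjusted p = 0.0707), and with only control and gRNA 1 fitted (adjusted p = 0.0945). In that last fit 4 of the 8 genes were called with gRNA 1 in place of 6, and 5660 of all genes in place of 7377. A gRNA 10 call was gained without control replicate 2 (0.24, adjusted p = 0.0219), without gRNA 1 replicate 3 (0.19, adjusted p = 0.0136) or with only control and gRNA 10 fitted (adjusted p = 0.0225).

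**Figure D2:**
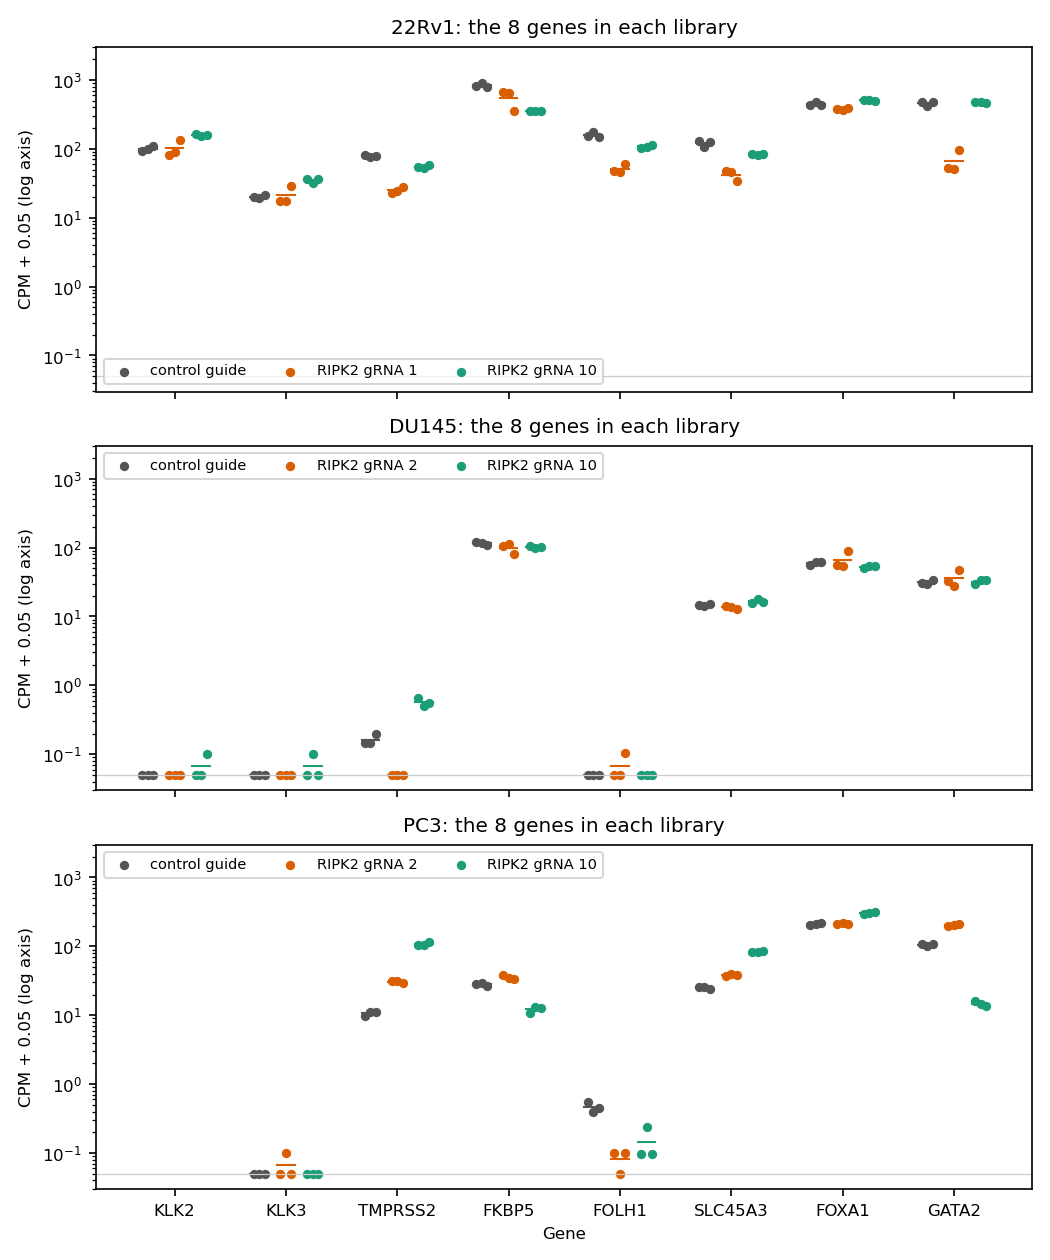
Level of each gene in every library, in CPM on a log axis with the offset named on the axis, 1 panel for each line and 1 point for each library, coloured by guide, with short lines at group means. In 22Rv1 the gRNA 1 points of GATA2 lie at 50.8 to 97.4 CPM, far below control, while the gRNA 10 points of KLK2 and KLK3 lie above every control point.

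Set directly against each other, the 22Rv1 guides differed in all 8 genes, where 35.6% of all genes were called. FKBP5 was higher with gRNA 1 than with gRNA 10 (0.65, adjusted p = 0.0203) and the other 7 were lower. GATA2 differed most (-2.82, SE 0.22, adjusted p = 5.81e-06), followed by TMPRSS2 (-1.15), FOLH1 (-1.08) and SLC45A3 (-0.98). KLK3 differed by -0.72 (adjusted p = 0.00945), KLK2 by -0.64 (adjusted p = 0.0117) and FOXA1 by -0.43 (adjusted p = 0.00202). The FKBP5 call was lost in 5 of the fits that left out 1 library, namely gRNA 1 replicate 1 or 2 or any gRNA 10 replicate (adjusted p from 0.064 to 0.0677), and with only these guides fitted (adjusted p = 0.0616). Neuroendocrine markers were summed over CHGA, SYP, NCAM1 and INSM1. Their sum ranged from 88.4 to 96.6 CPM in control, 60.6 to 80.9 with gRNA 1 and 147 to 155 with gRNA 10. SYP was above 1 CPM in all 3 groups and alone in control, so the control sum was mainly SYP. CHGA exceeded 1 CPM with either RIPK2 guide, also with gRNA 1, where the sum was lower than in control. Summed luminal markers ranged from 821 to 876 CPM, 993 to 1010 and 1043 to 1076. Against that sum, KRT8 stood at 124 CPM with gRNA 10 and 173 in control, and CDH1 at 340 with gRNA 1 and 420 in control. Their part in the differences was not tested. In bulk libraries, fewer cells of a type and less RNA per cell cannot be told apart.

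DU145 showed no called change in these genes. KLK2, KLK3 and FOLH1 gave 0 or 1 count in every DU145 library and were not tested. Of the 4 tested genes, 0 were called by edgeR with gRNA 2, where 34.0% of 14908 genes were called, and 0 with gRNA 10, where 40.0% were. None of the 4 reached an unadjusted p under 0.05 with either guide, and DESeq2 also called 0 with each. The count of all genes called with gRNA 2 fell from 5072 to 3259 without control replicate 1 and to 3329 without control replicate 3.

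FKBP5 in DU145 gave 119, 117 and 110 CPM in control, 105, 112 and 79.8 with gRNA 2 and 105, 98.0 and 102 with gRNA 10. The log2 differences from control were -0.22 (SE 0.11, adjusted p = 0.157) and -0.18 (SE 0.11, adjusted p = 0.23). FOXA1 gave 55.9, 60.9 and 62.7 CPM in control, 55.3, 53.4 and 89.7 with gRNA 2 and 50.8, 53.6 and 54.1 with gRNA 10. Replicate 3 of gRNA 2 was the lowest FKBP5 library and the highest FOXA1 and GATA2 library of the line. Without it, FKBP5 (-0.18, adjusted p = 0.0179) and FOXA1 (-0.18, adjusted p = 0.0305) passed as lower with gRNA 10, FOXA1 with gRNA 2 moved from 0.14 to -0.13 and GATA2 with gRNA 2 from 0.19 to -0.06. Without gRNA 2 replicate 2, FKBP5 passed as lower with gRNA 2 (-0.32, adjusted p = 0.0416). GATA2 gave 30.8, 29.4 and 34.3 CPM in control, 32.8, 27.3 and 47.9 with gRNA 2 and 29.1, 33.4 and 33.7 with gRNA 10, overlapping throughout.

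SLC45A3 in DU145 gave 14.7, 14.1 and 15.3 CPM in control, 14.03, 13.5 and 12.8 with gRNA 2 and 15.8, 17.8 and 16.2 with gRNA 10. The gRNA 2 libraries all lay below and the gRNA 10 libraries all above control, but neither difference passed the test (adjusted p = 0.351 and 0.185). Between the 2 guides SLC45A3 was the 1 of 4 genes called (-0.30, adjusted p = 0.0342), where 38.8% of genes were called. That call was lost in 6 of the 9 fits that left out 1 library, those without a control or gRNA 10 replicate (adjusted p from 0.0558 to 0.13). Without gRNA 2 replicate 2, FOXA1 was called as well (0.46, adjusted p = 0.0456). TMPRSS2, too low to be tested, gave 2, 2 and 3 counts in control, 0 in each gRNA 2 library and 12, 9 and 10 with gRNA 10. The gRNA 10 ratio to control was 4.60 (95% interval 1.99 to 12.4, for counting error only). Summed luminal markers in DU145 ranged from 795 to 840 CPM in control, 1485 to 2815 with gRNA 2 and 1429 to 1542 with gRNA 10. With gRNA 10 KRT8 and KRT18 were higher than in control, while EPCAM stood at 34.0 against 58.1 CPM and CDH1 at 14.9 against 20.1. Summed neuroendocrine markers ranged from 6.56 to 7.92 CPM in control, 1.66 to 2.18 with gRNA 2 and 22.7 to 25.1 with gRNA 10. The higher sum with gRNA 10 came from NCAM1, at 18.6 against 0.0323 CPM in control. SYP went the other way, at 5.39 against 7.15 CPM, and CHGA and INSM1 were not listed in DU145. The part of these markers was not tested.

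In PC3, TMPRSS2 and SLC45A3 rose with both guides, while GATA2 and FKBP5 rose with gRNA 2 and fell with gRNA 10. All 5 tested genes were called with that guide, 3 higher and 2 lower, where 73.5% of 14718 genes were called. With gRNA 2, 4 of 5 were called, all higher, where 63.6% were. The share called is thus close to that of all genes. PC3 replicates lay close to each other, with a biological coefficient of variation of 3.55% against 14.2% in 22Rv1 and 12.3% in DU145. All calls and directions of these 5 genes against control held without any 1 PC3 library, apart from the sign of FOXA1 with gRNA 2, which was near 0.

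TMPRSS2 rose in PC3 with both guides, the opposite direction to 22Rv1. It gave 9.83, 11.1 and 11.2 CPM in control, 31.1, 31.3 and 29.5 with gRNA 2 and 105, 104 and 115 with gRNA 10. The groups did not overlap, and gRNA 10 took TMPRSS2 above its 22Rv1 control level in CPM, which comes from another table. The log2 fold change was 1.51 with gRNA 2 (SE 0.07, adjusted p = 8.69e-18) and 3.33 with gRNA 10 (SE 0.06, adjusted p = 1.95e-28). SLC45A3 rose in the same order, from 25.5, 25.3 and 24.1 CPM in control to 37.4, 39.6 and 38.3 with gRNA 2 and 82.2, 82.6 and 85.4 with gRNA 10. On the log2 scale these rises were 0.62 (SE 0.05, adjusted p = 1.49e-11) and 1.74 (SE 0.05, adjusted p = 9.27e-24).

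GATA2 and FKBP5 moved in opposite directions with the 2 PC3 guides. GATA2 gave 109, 99.5 and 106 CPM in control, rose to 196, 201 and 210 with gRNA 2 and fell to 15.9, 14.4 and 13.7 with gRNA 10. On the log2 scale GATA2 stood at 0.95 (SE 0.04, adjusted p = 4.54e-18) and -2.84 (SE 0.06, adjusted p = 1.43e-27). GATA2-AS1 fell with both, at -0.55 and -2.64, so that it parted from GATA2 with gRNA 2. FKBP5 gave 28.1, 29.6 and 26.3 CPM in control, 38.0, 34.8 and 33.4 with gRNA 2 and 10.6, 13.1 and 12.5 with gRNA 10. FKBP5 thus stood at 0.34 (SE 0.06, adjusted p = 3.69e-05) and -1.21 (SE 0.08, adjusted p = 7.51e-15).

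FOXA1 in PC3 gave 203, 209 and 220 CPM in control and 209, 216 and 213 with gRNA 2, which overlapped (0.01, adjusted p = 0.78). With gRNA 10 it gave 292, 304 and 315 CPM, above every control library (0.53, SE 0.04, adjusted p = 1.54e-13). FOLH1, too low to be tested, gave 10, 7 and 8 counts in control, 1, 0 and 1 with gRNA 2 and 1, 4 and 1 with gRNA 10. The control exceeded gRNA 2 by a ratio of 12.6 (95% interval 3.15 to 110) and gRNA 10 by 4.31 (1.72 to 12.8), intervals that cover counting error only. KLK3 gave 0 or 1 count in every PC3 library. Between the PC3 guides all 5 tested genes differed, where 73.4% of all genes were called. GATA2 was higher with gRNA 2 by 3.78 and FKBP5 by 1.55, while TMPRSS2 was lower by -1.82, SLC45A3 by -1.12 and FOXA1 by -0.51. Summed luminal markers in PC3 ranged from 733 to 758 CPM in control, 920 to 971 with gRNA 2 and 1640 to 1758 with gRNA 10. EPCAM went the other way with gRNA 10, at 40.7 CPM in control and 32.1. Among 8 markers of other cell types, COL3A1 stood at 36.4, 12.4 and 17.9 CPM and PECAM1 at 1.89, 9.18 and 7.03 CPM in control, gRNA 2 and gRNA 10. All 8 summed to 38.4 to 39.0, 19.9 to 23.2 and 22.8 to 27.1 CPM. Summed neuroendocrine markers ranged from 4.23 to 5.24, 3.01 to 4.09 and 1.55 to 2.45 CPM, with only SYP above 1 CPM. Their part was not tested.

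**Figure D3:**
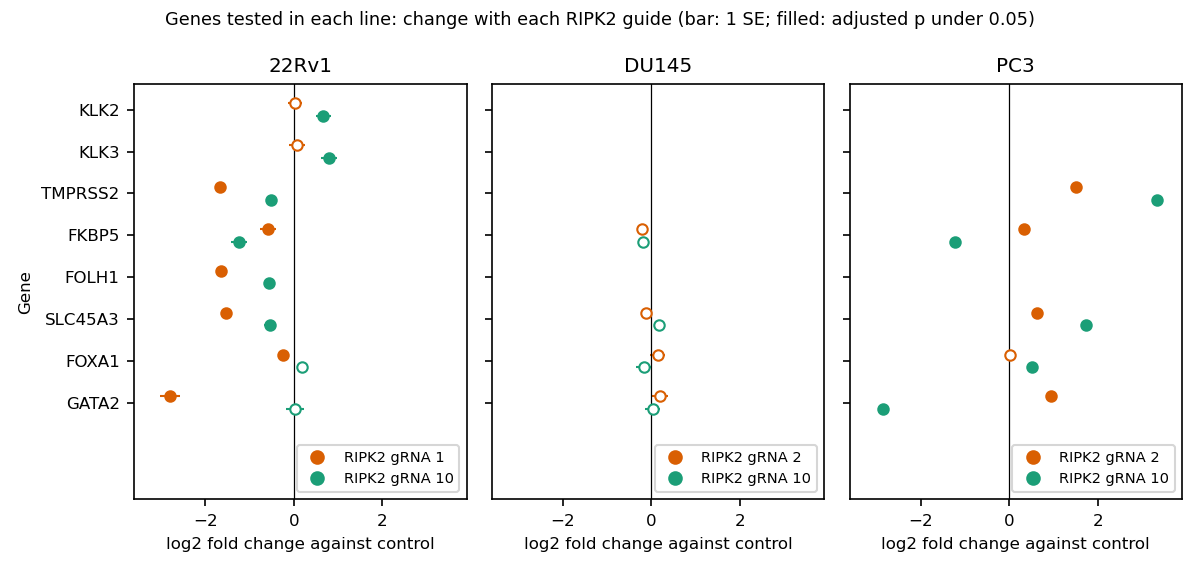
log2 fold change against control of each tested gene with each RIPK2 guide, 1 panel for each line, bars showing 1 SE and filled points an adjusted p under 0.05. TMPRSS2 and SLC45A3 lie left of 0 with both guides in 22Rv1 and right of 0 with both in PC3, and GATA2 reaches -2.79 with gRNA 1 in 22Rv1 and -2.84 with gRNA 10 in PC3.

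gRNA 10 was the only guide used in all 3 lines, which allowed its effect to be compared between lines by an interaction term over all 27 libraries. KLK3 could not be compared with DU145 or PC3, nor FOLH1 with DU145, since every control and gRNA 10 library there held 3 counts or fewer. The background was not limited in this way, so it is set beside the 7 genes in the fit. Between 22Rv1 and DU145, 3 of 7 differed (42.9%, background 44.7%), or 3 of the 5 comparable genes. All had a lower value in 22Rv1: TMPRSS2 by -2.64, FKBP5 by -1.04 and SLC45A3 by -0.71. Without DU145 gRNA 2 replicate 3 (0.36, adjusted p = 0.0015) or replicate 2 (0.37, adjusted p = 0.0377), FOXA1 differed too. Between 22Rv1 and PC3, 4 of 7 differed (57.1%, background 47.6%), or 4 of 6 comparable genes. TMPRSS2 differed by -3.80 (SE 0.12, adjusted p = 1.53e-17) and SLC45A3 by -2.25 (SE 0.13, adjusted p = 3.65e-13), both falling in 22Rv1 and rising in PC3. GATA2 differed by 2.90 and FOLH1 by 1.51. The FOLH1 call rests on few counts and was lost without PC3 control replicate 1 (1.35, adjusted p = 0.0766), PC3 gRNA 10 replicate 1 (1.20, adjusted p = 0.113) or PC3 gRNA 10 replicate 3 (1.20, adjusted p = 0.112). Without DU145 gRNA 2 replicate 3, FOXA1 was called as well (-0.32, adjusted p = 0.00354). FKBP5 fell in both lines, and its interaction was 0.01 (SE 0.21, adjusted p = 0.971). Between DU145 and PC3, 4 of 7 differed (57.1%, background 48.1%), or 4 of 5 comparable genes. They were GATA2 by 2.89, FKBP5 by 1.06, FOXA1 by -0.68 and SLC45A3 by -1.54.

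Further androgen-induced genes were followed in a list of 38, drawn from general knowledge of the pathway. In 22Rv1, 35 were tested. With gRNA 1, 3 rose and 20 fell, with a median log2 fold change of -0.56. With gRNA 10, 6 rose and 16 fell, with a median of -0.30. Without gRNA 1 replicate 3 the counts were 6 higher and 21 lower with gRNA 1, and 9 higher and 16 lower with gRNA 10. That fit called 8391 and 8971 of all genes, in place of 7377 and 6169. With all libraries, the 65.7% and 62.9% called stand beside 48.5% and 40.6% of all genes. With both guides 14 were lower and 2 higher. The guides share their control libraries, and the matching share of all genes was not computed, so these counts have no background. PMEPA1, an androgen- and TGF-beta-induced membrane protein gene, fell from 912 ± 35.5 CPM (SD, n = 3) in control to 91.7 ± 19.3 with gRNA 1 and 130 ± 5.996 with gRNA 10. LIFR, the leukaemia inhibitory factor receptor gene, fell from 71.5 ± 12.4 CPM to 8.38 ± 1.61 and 27.5 ± 2.47. PART1, a prostate long non-coding RNA, rose by 1.92 with gRNA 1 and by 0.68 with gRNA 10 (adjusted p = 0.0229), a call lost in 4 of the fits without 1 library, those without control replicate 1 or 3 or gRNA 10 replicate 1 or 2 (adjusted p from 0.0594 to 0.088). The amino acid transporter gene SLC38A4 rose by 1.14 and 0.96. NDRG1, C1orf116 and ACP3 fell with gRNA 1 and rose with gRNA 10. NDRG1, also known as a hypoxia-induced gene, had the widest split, at -0.59 and 1.65.

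In DU145, 29 of these genes were tested. With gRNA 2, 7 rose and 4 fell (median 0.03), and with gRNA 10, 8 rose and 5 fell (median 0.25). The 37.9% and 44.8% called are near the 34.0% and 40.0% of all genes. Without gRNA 2 replicate 3 the counts became 11 and 5, and 15 and 8. That fit also called more of all genes, 6957 with gRNA 2 and 8859 with gRNA 10, in place of 5072 and 5956. PMEPA1 rose in DU145 from 3.31 ± 0.390 CPM to 10.0 ± 0.919 with gRNA 2 and 15.8 ± 0.213 with gRNA 10. In PC3, 30 were tested, with 15 higher and 7 lower with gRNA 2 (median 0.11), and 16 higher and 11 lower with gRNA 10 (median 0.16). The 73.3% and 90% called stand beside 63.6% and 73.5% of all genes. PMEPA1 rose by 1.66 and 1.88 and the elongation factor gene ELL2 by 1.33 and 0.76. IQGAP2, a scaffold protein gene, was at -4.34 and -1.65, and the prostaglandin receptor gene PTGER4 at -0.78 and -2.43. The direction of PMEPA1 against control was thus down in 22Rv1 and up in DU145 and PC3 with both guides of each line. The difference between lines was not tested for this gene.

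**Figure D4:**
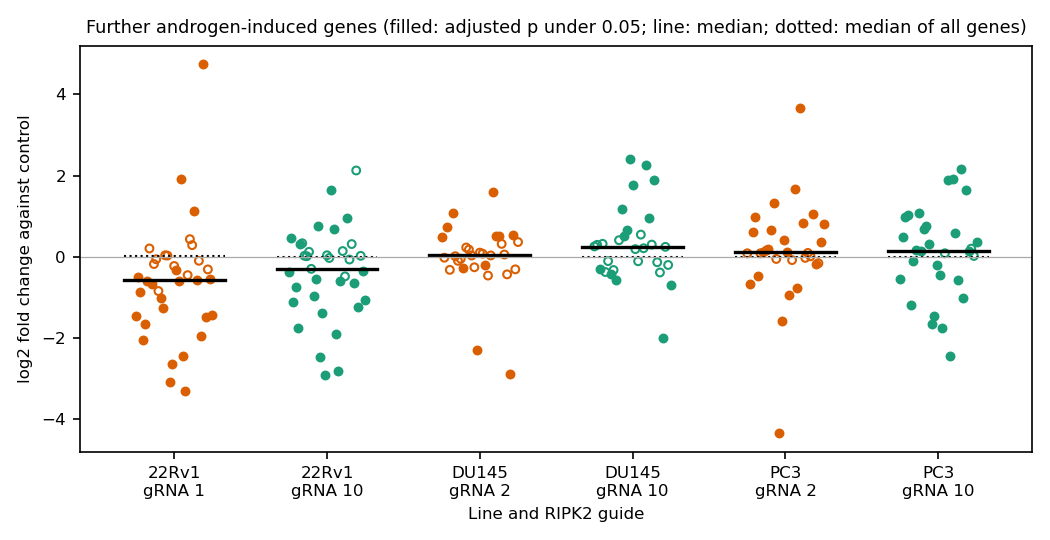
log2 fold change of each tested gene of the list of further androgen-induced genes, 1 column for each line and guide, filled points marking an adjusted p under 0.05, a line the list's median and a dotted line the median of all genes. The medians lie at -0.56 and -0.30 in the 22Rv1 columns and between 0.03 and 0.25 in the other 4.

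Receptor cofactors and other pioneer factors made a list of 18. In 22Rv1 3 of 17 tested rose and 6 fell with gRNA 1, and 6 rose and 1 fell with gRNA 10. The 52.9% and 41.2% called are near the 48.5% and 40.6% of all genes. GATA3, a factor related to GATA2, was the largest rise, from 0.749 ± 0.243 CPM in control to 120 ± 29.5 with gRNA 1 and 6.15 ± 0.983 with gRNA 10. Those are log2 fold changes of 7.31 and 3.03. In PC3 GATA3 rose with gRNA 2, by 1.73, and was at -0.72 with gRNA 10 (adjusted p = 0.00327), the same directions as GATA2 there. In 22Rv1 HOXB13, a homeobox factor of the prostate lineage, was at -1.28 with gRNA 1 and -0.59 with gRNA 10. In DU145, 5 of 17 rose and 3 fell with gRNA 2, and 9 rose and 2 fell with gRNA 10 (47.1% and 64.7% called, against 34.0% and 40.0%). GATA6 rose there by 1.28 and 1.39 and the acetyltransferase gene CREBBP was at -0.78 and -0.69. The corepressor gene NCOR1 rose by 0.49 and 0.73, and its gRNA 2 call was lost without control replicate 2 (adjusted p = 0.0564). In PC3, 4 of 18 rose and 6 fell with gRNA 2, and 8 rose and 6 fell with gRNA 10 (55.6% and 77.8% called, against 63.6% and 73.5%). The demethylase gene KDM1A rose by 0.51 and 0.44. HOXB13 was at -0.59 and -0.55 in PC3, and the chaperone gene HSP90AA1 at -0.41 and -0.48.

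FKBP5 also answers to glucocorticoids, and a list of 9 other glucocorticoid-induced genes was read beside it. In 22Rv1 2 of 9 rose and 4 fell with gRNA 1, and 1 rose and 5 fell with gRNA 10, so 66.7% were called with each, against 48.5% and 40.6% of all genes. KLF9 fell from 91.7 ± 4.91 CPM to 16.8 ± 0.866 and 36.0 ± 1.504. TSC22D3, which encodes the glucocorticoid-induced leucine zipper protein, was at -2.41 with gRNA 1 and -0.37 with gRNA 10. Leaving out any of the 6 libraries of this comparison ended the gRNA 10 call (adjusted p from 0.0766 to 0.122). CEBPD was at 0.68 and 0.61. Its gRNA 1 call ended without control replicate 2 (adjusted p = 0.0696), and its gRNA 10 call ended in 5 fits, without control replicate 2 or 3 or any gRNA 10 replicate (adjusted p from 0.0644 to 0.116). The metallothionein gene MT2A was called in opposite directions, 0.76 and -1.26. In DU145, 3 of 8 rose and 2 fell with gRNA 2, and 3 rose and 1 fell with gRNA 10. The 62.5% and 50% called stand beside 34.0% and 40.0% of all genes. Without gRNA 2 replicate 3 the counts were 6 and 2, and 4 and 2. That fit called 6957 and 8859 of all genes, in place of 5072 and 5956. MT2A rose in DU145 by 2.06 with gRNA 2 and was at 0.54 with gRNA 10, a call that ended when any of its 6 libraries was left out (adjusted p from 0.0828 to 0.117). CEBPD in DU145 was at -0.98 and -0.64, and its gRNA 10 call was lost without control replicate 3 (adjusted p = 0.051) or gRNA 10 replicate 1 (adjusted p = 0.0566). In PC3, 5 of 8 rose and 1 fell with each guide, 75% called against 63.6% and 73.5% of all genes. MT2A rose there by 1.03 and 0.46 and ERRFI1 by 0.71 and 0.51.

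Of the 5 other steroid receptor genes, NR3C1, the glucocorticoid receptor gene, and NR3C2, the mineralocorticoid receptor gene, were tested in 22Rv1. NR3C1 was at -0.13 with gRNA 1 and -0.26 with gRNA 10, and NR3C2 at -0.37 and 0.47, with adjusted p from 0.0767 to 0.44. Without gRNA 1 replicate 3, 3 of these receptor genes were tested, and 2 rose and 1 fell with gRNA 10. Of all genes, that fit called 8971 with gRNA 10 in place of 6169. In DU145, 1 of 3 tested rose with gRNA 2 and 3 of 3 with gRNA 10 (33.3% and 100% called, against 34.0% and 40.0%). PGR, the progesterone receptor gene, rose with both, by 4.22 (SE 0.40, adjusted p = 5.5e-05) and 4.59 (SE 0.39, adjusted p = 1.53e-05), and was named after its values were seen. Its level was low throughout, at 1 to 5 counts per control library (0.145 CPM) and at 2.79 and 3.62 CPM with gRNA 2 and gRNA 10. The size of the rise thus rests on few control counts. In PC3, NR3C1 rose by 0.55 with gRNA 2 and by 0.47 with gRNA 10, and NR3C2 was at -0.66 and -1.45. Of the 17 genes of androgen synthesis and breakdown, 12 were tested in 22Rv1, with 5 higher and 3 lower with gRNA 1, and 6 higher and 5 lower with gRNA 10 (66.7% and 91.7% called, against 48.5% and 40.6%). UGT2B15, which encodes an enzyme that conjugates androgens for removal, rose from 12.4 ± 0.954 CPM to 112 ± 4.60 and 177 ± 1.77. AKR1C2, which encodes an enzyme that inactivates dihydrotestosterone, rose from 1.69 ± 0.342 CPM to 36.9 ± 11.2 and 8.52 ± 0.926. Both belong to families of near copies, so their reads may be split. The steroid sulfatase gene STS was at -0.78 and -0.65. Its gRNA 1 call ended without control replicate 2 (adjusted p = 0.05), and its gRNA 10 call ended in 5 fits, without control replicate 1 or 2 or any gRNA 10 replicate (adjusted p from 0.0736 to 0.116). In DU145, 1 of 8 rose and 5 fell with gRNA 2, and 1 rose and 1 fell with gRNA 10, or 75% and 25% called against 34.0% and 40.0% of all genes. Without gRNA 2 replicate 3 the gRNA 10 counts were 4 higher and 2 lower, with 8859 of all genes called in place of 5956. HSD17B11 was at -0.27 and -0.44 there, and its gRNA 2 call ended on leaving out a control or a gRNA 10 replicate, whichever of the 6 it was (adjusted p from 0.0501 to 0.117). In PC3, 5 of 10 rose and 2 fell with gRNA 2, and 4 rose and 2 fell with gRNA 10. The 70% and 60% called are near the 63.6% and 73.5% of all genes. AKR1C3 rose in PC3 by 0.73 and 1.33. SRD5A3 was at -0.14 and -0.18, and its gRNA 2 call ended without replicate 1 or 3 of control or replicate 2 or 3 of gRNA 2 (adjusted p from 0.0702 to 0.116).

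Genes with a pattern like KLK3 were ranked by Pearson r on log2(CPM + 0.5), as a description. Over the 9 group means, among 12021 genes, SCG3 (r = 0.99961), METTL7A (0.99898), RAB3C (0.99895), XKR7 (0.99826) and DNALI1 (0.99810) were closest. These means fall into a high set of 22Rv1 groups and a low set of the other lines. SCG3, which encodes a secretory granule protein, had 48.6, 50.8 and 74.5 CPM in the 22Rv1 control, gRNA 1 and gRNA 10 groups, and at most 0.0335 CPM elsewhere. Over the 9 libraries of 22Rv1, among 10545 genes, ESRP2 (0.98679), SLC12A7 (0.98413), KLK2 (0.98384), PLEKHG2 (0.98250) and EPN3 (0.98108) were closest. These libraries share their line, guides and count table. ESRP2, an epithelial splicing regulator gene, stood at 101.4, 102.1 and 143.6 CPM in the 22Rv1 control, gRNA 1 and gRNA 10 groups. KLK2 ranked 3 of 10545, while FKBP5, at -0.892, ran against KLK3 over the same libraries.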

How the data were processed

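RNA of 27 libraries of 22Rv1, DU145 and PC3 cells was analysed, 3 for each line and guide. The deposited tables hold the authors' whole-number read counts per gene symbol, 1 table for each line. The submitters' processing notes name FastQC, STAR, edgeR and hg38 without a role. The counting program, annotation, strand setting and filters were not given in the sources used here. Depth ranged from 17958558 to 20650819 counts per library, and 0 value columns were left unused. Symbols listed more than once were summed (6 in 22Rv1, 2 in DU145 and 2 in PC3). The transcript of the receptor itself is not analysed here, and some genes that the naming rule selects are not reported here.

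Each line was fitted over its 9 libraries with edgeR 4.0.16 in R 4.3.3 (filterByExpr at its count setting of 10 and total setting of 15, TMM factors, robust quasi-likelihood test). Calls use a Benjamini-Hochberg adjusted p under 0.05 over all tested genes, two-sided. Lines were compared in 1 fit of all 27 libraries over symbols listed in all 3 tables. A count of 0 was taken to allow 3 counts. Intervals are exact, at 95%, and cover counting error only, as copies of 1 molecule cannot be recognised without molecular identifiers. CPM are counts per 1000000 of the library's TMM-scaled total. Alternatives used DESeq2 1.42.0, other filters, other factors, a replicate block, fits without mitochondrial genes, fits of only the groups compared, and fits without each library. The procedure was tested on simulated data.

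The genes and lists were chosen with earlier results of these data known. Named list genes were, for each list and line, the 2 with the largest rise and the 2 with the largest fall among those called in 1 direction with both guides and with a group mean of at least 10 CPM. Likeness to KLK3 used log2(CPM + 0.5) among genes whose highest group mean reached 10 CPM. Promoter sequences came from RefSeq and were read with Python 3.11.15, Biopython 1.88 and pandas 2.3.3, and plots were drawn with matplotlib 3.10.9.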

Additional observations from a re-analysis of the deposited data

Results flagged for a closer look

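The effect of gRNA 10 differed between lines, by a test of the interaction of guide and line, for TMPRSS2, SLC45A3, FKBP5, GATA2, FOLH1 and FOXA1. Each value is the log2 change in the first line minus that in the second, with edgeR's adjusted p.

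Between 22Rv1 and DU145, TMPRSS2 differed by -2.64 (adjusted p = 2.61e-06), FKBP5 by -1.04 (0.000145) and SLC45A3 by -0.71 (0.000164). TMPRSS2 rests there on 2 to 12 counts in each DU145 control or gRNA 10 library.

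Between 22Rv1 and PC3, TMPRSS2 differed by -3.80 (adjusted p = 1.53e-17), SLC45A3 by -2.25 (3.65e-13), GATA2 by 2.90 (6.46e-10) and FOLH1 by 1.51 (0.0285). GATA2 overlapped its control level in 22Rv1 and stood at 13.99% of control in PC3.

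Between DU145 and PC3, GATA2 differed by 2.89 (adjusted p = 1.36e-09), SLC45A3 by -1.54 (1.42e-09), FKBP5 by 1.06 (0.000218) and FOXA1 by -0.68 (0.00146). RIPK2 itself stood at 32.3%, 81.9% and 45.1% of control with gRNA 10 in 22Rv1, DU145 and PC3, and the part of that difference in these values was not tested.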

How the results depend on the processing

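Of 1992 log2 fold changes of the 8 genes under alternatives, 1933 kept their direction and side of the threshold, 24 lost a call, 13 gained one and 22 changed sign. In DU145 the number of the 8 genes called with gRNA 2 was 1 with no filter on low counts, and 0 to 1 when 1 library was left out. With gRNA 10 it was 1 with no filter, 2 with only the groups compared, and 0 to 2 when 1 library was left out. Between the DU145 guides it was 0 with only the groups compared, 0 with the replicate block, and 0 to 2 when 1 library was left out. Replicate numbers were treated as names only. Same-numbered libraries correlated in their deviations from -0.191 to 0.339, and not every correlation was above 0.1. Differently numbered libraries were not set beside them, so these values cannot settle whether the numbers pair samples. Besides SLC45A3 between the DU145 guides, the replicate block changed no call of the 8 genes. All genes called in DU145 with gRNA 2 numbered 3335 with only the groups compared and 3259 to 6957 when 1 library was left out. With gRNA 10 they numbered 9749 with only the groups compared. Requiring at least 10 counts in every library, which left fewer genes tested, gave 4 called between 22Rv1 control and each other control, and 2 for the gRNA 10 effect between 22Rv1 and PC3.

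The values that changed sign were near 0 or rested on 1 library, and are given as the range over fits that left out 1 library. In 22Rv1 with gRNA 1, KLK2 ranged from -0.24 to 0.16 and KLK3 from -0.21 to 0.20, both lowest without gRNA 1 replicate 3. KLK2 was also at -0.034 with no filter on low counts. GATA2 in 22Rv1 with gRNA 10 ranged from -0.031 to 0.062. In DU145 with gRNA 2, FOXA1 ranged from -0.13 to 0.28 and GATA2 from -0.065 to 0.36, both lowest without gRNA 2 replicate 3. Between the DU145 guides, FKBP5 ranged from -0.14 to 0.10 and GATA2 from -0.088 to 0.33. GATA2 in DU145 with gRNA 10 ranged from -0.024 to 0.091, and FOXA1 in PC3 with gRNA 2 from -0.016 to 0.045. The gRNA 10 effect on GATA2 between 22Rv1 and DU145 ranged from -0.051 to 0.069, and that on FKBP5 between 22Rv1 and PC3 from -0.081 to 0.078. The latter was at -0.0041 with RLE factors, -0.0037 with DESeq2 and -0.0028 with the stricter filter on counts. The cause was not tested.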
